A study of Mus musculus with 8 samples.

Results

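Ly49-positive innate-like T cells were taken from single-cell transcriptomes of mouse liver cells enriched for leukocytes, and 693 of 48465 kept cells of all types (1.43%) met the rule. A cell was kept with 200 to 2500 detected genes and at most 30% of its unique molecular identifiers (UMIs, each counting 1 captured transcript) from mitochondrial genes. It was a member with a UMI of Cd3e or Cd3d, a UMI of Cd8a or Trdc, UMIs of at least 2 of the 6 receptor genes Klra1, Klra5, Klra6, Klra7, Klra9 and Cd160, and no UMI of 5830411N06Rik, Mki67, Top2a, Kdr, Cd79a or Clec4f. The rule thus read transcripts and not surface protein, and it left out cells that carried the cell-cycle transcripts Mki67 or Top2a. The 8 livers came from female C57BL/6J mice aged 9 weeks, 4 from the control group and 4 given 1.2 mg of soluble β-glucan (BG, odetiglucan) intravenously, and livers were collected on day 2. Each mouse gave 1 library, made by the 10x Genomics 3′ chemistry from perfused, enzymatically digested liver after removal of dead cells and enrichment of CD45+ cells, with cells of a density-gradient layer added back to recover Kupffer cells (KCs). Control mice were not given BG, and the labels name no tumor, transgene or other agent for either group. The 8 mice are separate animals, so p-values measure the spread between mice.

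Ly49 receptors are lectin-like proteins encoded by the Klra genes on natural killer (NK) cells and some T cells of mice. Most of them bind class I major histocompatibility complex (MHC) molecules and restrain the cell, and a few deliver activating signals through the adaptor DAP12, the product of Tyrobp. CD160 binds the receptor HVEM, Cd8a and Trdc encode a CD8 chain and the constant part of the T cell receptor δ chain, and innate-like T cells are known for fast cytokine release and killing without earlier priming. The 5 Ly49 genes of the rule lie in 1 cluster on chromosome 6 (GRCm38), from Klra5 at 129898996 to 129917650 to Klra1 at 130363917 to 130386874, all on the minus strand. Because Klra genes resemble each other, their shared sequence was measured over the last 500 bases of each transcript. Of the 60-base words there, 28.1% in Klra9 and 3.63% in Klra1 also occurred in another Klra gene, and none did in Klra5, Klra6 or Klra7. Levels of Klra9 are therefore the least certain of the 5.

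Libraries held 39612380 to 60654583 UMIs and gave 4330 to 7790 kept cells. The 4 control mice contributed 112, 72, 73 and 110 members and the 4 BG mice 57, 76, 96 and 97, and the members of a library held 178188 to 403544 UMIs in sum. Median depth was 2648 UMIs per member in control and 3190.5 in BG cells. BG replicate 5 stood apart before filtering, with a median of 34 genes per barcode and 66.6% mitochondrial UMIs against 30.5% to 41.9% in the other 7 libraries. It also gave the fewest members. No doublet caller was run, and 11 of the 693 barcodes occurred among kept cells of another library.

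By the rule every member held a Ly49 transcript, and values up to the comparison of BG with control are descriptions without a test. Exactly 2 of the 6 receptor genes were detected in 338 members (48.8%), 3 in 238, 4 in 95, 5 in 22 and all 6 in none. A single Ly49 gene was detected in 288 members (41.6%), and 2 or more in the others. The most frequent sets were Klra5 with Cd160 (95 cells), Klra9 with Cd160 (85 cells) and Klra7 with Cd160 (67 cells). Cd160 was thus the common partner, seen in 84.5% to 91.7% of members across control mice and 85.6% to 95.8% across BG mice. Klra7 was detected in 39.7% to 59.8% of members of control mice and 36.8% to 50% in BG mice, and Klra9 in 40.3% to 51.8% and 35.4% to 44.7%. Klra5 ranged from 33.0% to 43.8% and from 35.4% to 60.5%, with the highest share in BG replicate 6, and Klra1 and Klra6 were the rarer receptors (20.5% to 39.6% and 15.8% to 30.1% over all mice).

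Members split into 349 cells with Cd8a and no Trdc UMI (Cd8a-only, 50.4%), 229 with Trdc and no Cd8a UMI (Trdc-only, 33.0%) and 115 with both. The Cd8b1 chain, which pairs with Cd8a on conventional CD8+ T cells, had a UMI in 35 members, and 432 of the 464 members with Cd8a (93.1%) had none. Among T cells that met the same rule but held no UMI of the 6 receptor genes (1268 Ly49-negative T cells), 22.7% of cells with Cd8a lacked Cd8b1. Trac, the constant part of the T cell receptor α chain, was detected in 71.1% of Cd8a-only and 20.5% of Trdc-only members. A γ chain constant transcript (Tcrg-C1, Tcrg-C2 or Tcrg-C4) was found in 63.3% and 83.0%. Trac and a γ chain transcript occurred together in 157 Cd8a-only members (45.0%), against 4.57% of Ly49-negative T cells and 0.0805% of 6214 B cells, which should hold neither. Median depths were 2920 UMIs in Cd8a-only members, 2960.5 in Ly49-negative T cells and 1910 in B cells. In all, 691 of the 693 members held a UMI of Cd3g, Trac, Trbc1 or Trbc2. Cd3g was also abundant in cells with these receptor genes but no UMI of Cd3e, Cd3d, Cd8a or Trdc (levels below). The count therefore cannot tell members from such cells. Neither Trac nor a γ chain constant transcript was detected in 87 members (12.6%), against 40.0% of Ly49-negative T cells.

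Members carried transcripts of NK cell signaling and killing alongside those of T cells. To compare gates at equal depth, each cell was thinned to 1500 UMIs, which left out 17 members, 35 Ly49-negative T cells, 51 Ly49-positive non-T cells and 1363 B cells. The Ly49-positive non-T gate (817 cells) held 2 or more of the 6 receptor genes and no UMI of Cd3e, Cd3d, Cd8a or Trdc. It is named by its rule, since Cd3g, a further T cell receptor complex chain, averaged 1232 CPM there, against 1629 CPM in members and 678 CPM in Ly49-negative T cells (CPM, the UMIs of a gene scaled to the summed UMIs of the cells). Fcer1g, an adaptor of activating receptors, was detected in 84.6% of members after thinning (93.9% before), in 6.89% of Ly49-negative T cells, 93.6% of Ly49-positive non-T cells and 4.78% of B cells. For Tyrobp these shares were 75.9%, 6.97%, 94.8% and 9.83%, with the Ly49-negative T cells below the B cells. Gzmb, the killing protease granzyme B, was found in 79.6% of members, 6.16% of Ly49-negative T cells, 80.3% of non-T cells and 1.79% of B cells. Members did not match non-T cells in every killing gene. Prf1 (perforin) averaged 114 CPM in members, 44.6 CPM in Ly49-negative T cells and 423 CPM in non-T cells. For Gzma (granzyme A) these levels were 3084, 214 and 8634 CPM. Each of these genes was higher in members than in non-T cells in 0 of 8 libraries. Klre1, a receptor of NK cells, had a UMI in 55.6% and Xcl1, a chemokine for cross-presenting dendritic cells, in 77.1% of members, against 4.22% and 11.3% of Ly49-negative T cells. Klra8 and Klri2, which were detected in 13.1% and 20.5% of non-T cells, reached 1.04% and 1.92% in members, against B cell shares of 0.330% and 0.412%. Ncr1, the NK cell receptor NKp46, had a UMI in 14.3% of members after thinning (160 cells before, 23.1%), against 50.4% of non-T cells and 0.825% of B cells.

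Some transcripts of naive and memory T cells were scarce in members and others of the same list were not. Tcf7, a transcription factor of naive and memory T cells, was detected in 6.51% of members against 39.7% of Ly49-negative T cells, and Il7r, the receptor of the survival cytokine IL-7, in 6.95% against 45.7%. Cd5, which dampens T cell receptor signals, was found in 1.04% against 10.1%, and Cd28, the costimulatory receptor, in 10.7% against 39.5%. Il2rb, a chain of the receptors of interleukins 2 and 15, averaged 926 CPM in members against 337 CPM in Ly49-negative T cells and Btg1, a brake on proliferation, 1291 against 1218 CPM, both higher in members of 8 of 8 libraries. Of the markers of interleukin-17-producing γδ T cells, Il17a, Il23r and Ccr6 had no UMI in any thinned member. The list of 6 summed to at most 4.61 CPM in a mouse. The rule had left out cells with 5830411N06Rik, a transcript of these γδ T cells, so it may itself have lowered these values. Zbtb16, the factor of NKT cells, was found in 1.92% of members. The markers of the label (Klra7, Klra1, Klra6, Trdc, Cd8a and Cd160) were used by the rule and are no check of it. Of the members, 242 members (34.9%) held a UMI of a defining gene of another cell type (Ncr1, Cd4, Cd79b, Ms4a1, Lyz2, Csf1r, C1qa, S100a8, Stab2, Clec4g or Siglech).

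**Figure D1:**
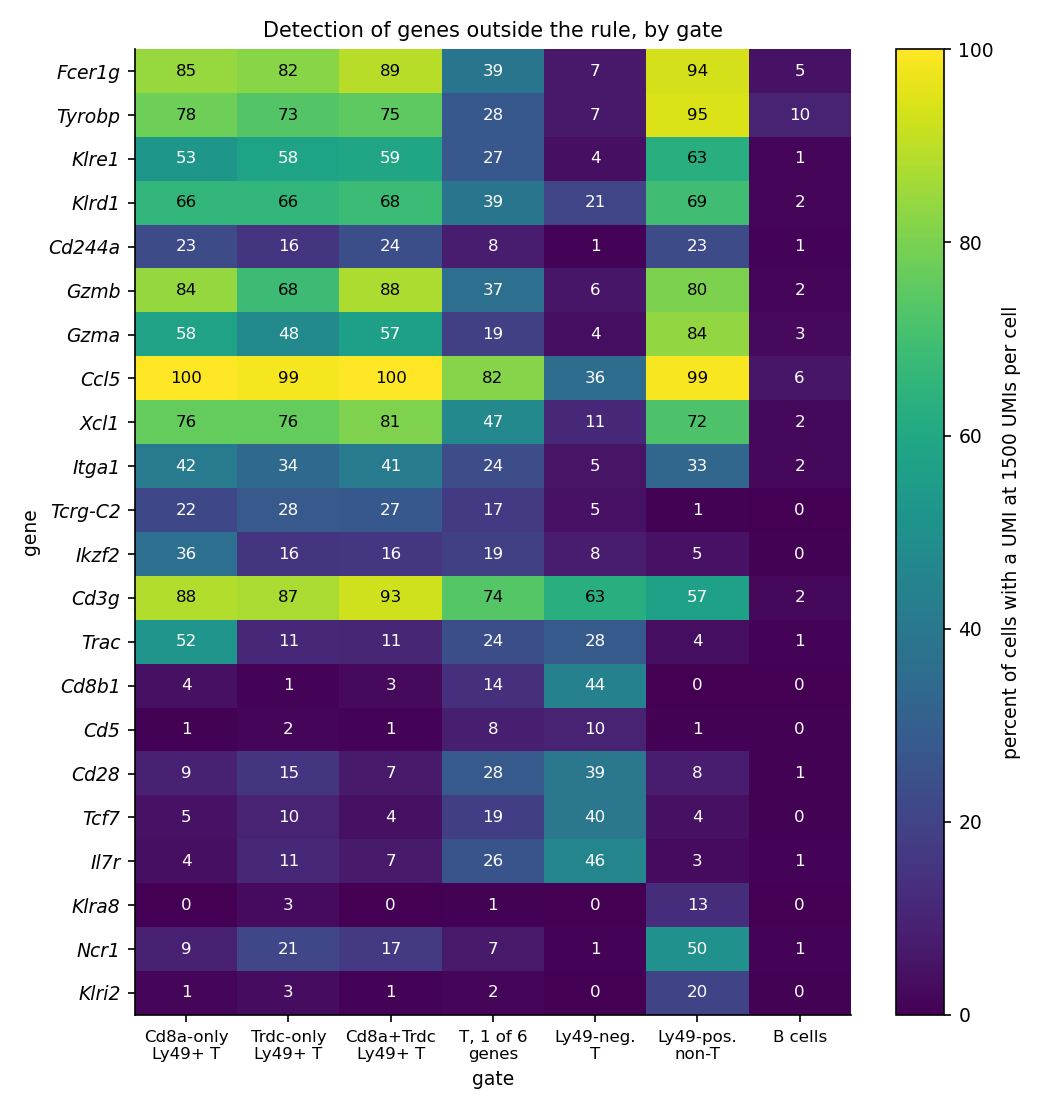
Percent of cells with a UMI of each gene after every cell was thinned to 1500 UMIs (color and printed value), for 22 genes outside the rule (rows) in the 3 groups of Ly49-positive T cells and 4 other gates (columns). Fcer1g was detected in 82.2% to 89.4% of the 3 Ly49-positive T cell groups and 6.89% of Ly49-negative T cells, Cd8b1 in at most 4.36% of the former and 43.8% of the latter, and Ncr1 in 50.4% of the non-T gate.

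Of 3019 genes at a mean of 50 CPM or more in members or either neighboring gate, 39 were higher in members than in both Ly49-negative T cells and Ly49-positive non-T cells in all 8 libraries (1.29%), and 8 were lower in all 8 (0.265%). Cells were chosen on their transcripts, so these counts describe the gates, and levels here are means over the 8 libraries without further scaling. Helios (Ikzf2), a transcription factor that in mice marks regulatory CD8+ T cells with Ly49 receptors, averaged 238 CPM in members, 61.5 in Ly49-negative T cells and 37.8 in non-T cells. By the rule no non-T cell held Trdc, and 754 of the 1268 Ly49-negative T cells held Cd8b1. Levels of γ chain transcripts therefore depend partly on how the gates were drawn. The γ chain transcripts Tcrg-C2 (166, 39 and 3.12 CPM), Tcrg-C1 (152, 36.9 and 6.81 CPM) and Trgv2 (122, 23.2 and 1.84 CPM) led the same list. It also held the liver residence receptor Cxcr6 (271, 129 and 164 CPM), the adenosine triphosphate receptor P2rx7 (66.7, 27.1 and 28.3 CPM), the cytokine signaling inhibitor Cish (153, 38.1 and 95.9 CPM), the interleukin-21 receptor Il21r (176, 74.4 and 121 CPM) and the early activation marker Cd69 (738, 538 and 449 CPM). Those lower than both neighbors included the adhesion molecule Pecam1 (11.7, 50.1 and 44 CPM), the interleukin-18 receptor Il18r1 (23, 62.9 and 53.8 CPM) and the chemokine receptor Ccr2 (41.9, 64.8 and 117 CPM).

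The Cd8a-only and Trdc-only members differed from each other in a short list of genes. Of 1414 genes at 100 CPM or more in either, 17 were higher in Cd8a-only members of all 8 libraries (1.2%) and 19 in Trdc-only members (1.34%), the genes of the split included. Klra7 averaged 531 CPM in Cd8a-only and 223 CPM in Trdc-only members, Klra6 118 against 58.5 CPM, Gzmb 2627 against 1623 CPM, and the chemokine gene Ccl3 516 against 359 CPM. In the other direction, Klra5 stood at 252 CPM in Cd8a-only and 363 CPM in Trdc-only members and Klrc1, the inhibitory receptor NKG2A, at 66.9 against 184 CPM. Tcrg-C4 stood at 105 against 227 CPM, and Id2, a regulator of innate lymphocytes, at 697 against 903 CPM. After thinning, Ikzf2 was detected in 36.3% of Cd8a-only, 15.5% of Trdc-only and 15.9% of double-positive members. Cells that held exactly 1 of the 6 receptor genes (594 cells, just outside the rule) had Fcer1g in 38.9%, Gzmb in 36.5% and Cd8b1 in 13.8% after thinning. Members with exactly 2 (338 cells, just inside) had them in 81.4%, 73.4% and 2.79%.

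The first comparison asked whether BG changed how many of these cells were recovered. Members made up 1.64%, 1.03%, 0.937% and 1.77% of kept cells in the 4 control mice and 1.32%, 1.31%, 2% and 1.70% in the 4 BG mice. The groups overlapped, with means of 1.34% ± 0.421 in control and 1.58% ± 0.332 in BG (SD, n = 4 each; exact permutation test, two-sided, p = 0.457). Of T cells with Cd8a or Trdc, members made up 28.3%, 22.6%, 19.5% and 32.2% in control mice and 21.8%, 29.5%, 35.7% and 29.0% in BG mice. These shares averaged 25.6% ± 5.67 and 29.0% ± 5.70 (n = 4 each, exact permutation p = 0.457). Trdc-only cells made up 35.7%, 26.4%, 31.5% and 39.1% of members in control mice and 35.1%, 30.3%, 34.4% and 28.9% in BG mice, which averaged 33.2% ± 5.49 and 32.1% ± 3.05 (n = 4 each, exact permutation p = 0.714). With 4 mice against 4 the smallest p that this test can give is 0.0286, and adjusted over the 3 shares the values were 0.686, 0.686 and 0.714. No difference in these shares was detectable beyond the spread between mice. Among cells with at most 10% mitochondrial UMIs, members made up 27.0% ± 8.05 of Cd8a or Trdc T cells in control and 38.8% ± 8.46 in BG mice (n = 4 each, exact permutation p = 0.0571). With every cell thinned to 1500 UMIs, Trdc-only cells were 29.9% ± 5.14 of members in control and 37.4% ± 5.25 in BG mice (n = 4 each, exact permutation p = 0.114), the reverse of the order above, and the order also turned without control replicate 4 (difference 0.945 percentage points) or BG replicate 8 (0.0667).

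**Figure D2:**
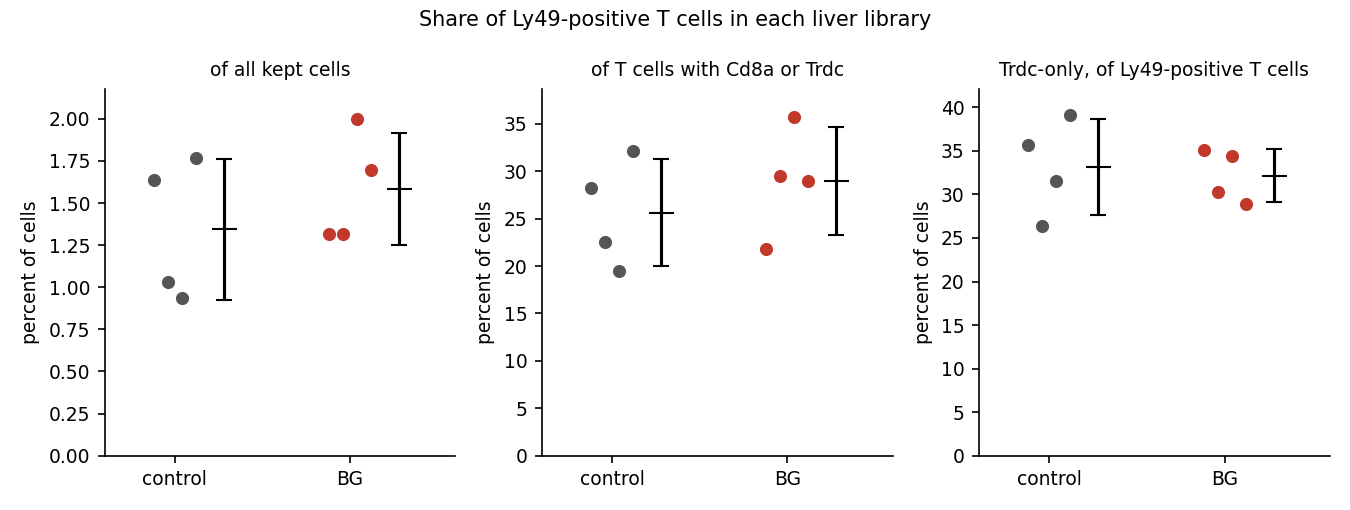
Share of Ly49-positive T cells among kept cells (left) and among T cells with Cd8a or Trdc (middle), and share of Trdc-only cells among Ly49-positive T cells (right), in percent. Each point is 1 mouse, and bars give the mean ± SD of 4 mice. Control and BG mice overlapped in each panel, with shares of kept cells from 0.937% to 1.77% in control and 1.31% to 2% in BG mice.

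The second comparison asked which genes BG changed inside the cells. UMIs were summed over the members of each mouse, 3673 genes passed a filter on low counts, and CPM below carry edgeR's library scaling (TMM). BG upregulated 25 genes (0.681% of those tested) and downregulated 6 (0.163%), by edgeR's quasi-likelihood test at an adjusted p under 0.05 and a log2 fold change past 0.5. The 25 were led by interferon-stimulated genes and also held the granzymes Gzmb and Gzma, protein-folding genes and the replication genes Mcm5 and Mcm2. Of the 25, 18 reached the level of the filter (35.4 CPM before scaling) in every control mouse and 4 in none. Those 4 (Rtp4, Mcm5, Mcm2 and Gbp6) could be tested only through the BG mice, in which they were high. The 6 were Btg2, Junb, Rgs2, Fosb, Fos and Ltb, of which 4 are immediate early genes. Of all genes tested, 2.75% lay higher in every BG mouse than in any control mouse and 2.64% lower, and the median log2 fold change was 0.00. DESeq2 called 17 of these 25 genes and 5 of these 6 and no other gene. The counts were 13 and 2 without BG replicate 7 and 39 and 7 without BG replicate 8, and lower genes numbered 2, 3 and 3 without control replicate 2, control replicate 3 and BG replicate 6. They were 6 and 2 among members with at most 10% mitochondrial UMIs (190 cells, 1131 genes tested), 13 and 2 among those with at least 3 receptor genes (355 cells) and 59 and 13 without the filter.

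BG raised 15 type I interferon-stimulated genes. These genes are switched on after interferon α or β binds its receptor, and many of their products block viruses. Of 68 genes in the list, 42 were tested, 15 were called higher and 0 lower by edgeR, and 41 of the 42 had a fold change above 0, with a median log2 fold change of 0.73 against 0.00 over all genes tested. DESeq2 called 11 higher and 0 lower. The count of 15 was 9 without BG replicate 7 and 10 without control replicate 1 or 3. It was 10 among members with at most 1500 detected genes, 9 with members chosen after thinning to 1500 UMIs, 7 among members without a UMI of other lineage markers, 7 with at least 3 receptor genes and 3 with at most 10% mitochondrial UMIs. Of the 42, 29 reached the level of the filter (35.4 CPM before scaling) in every control mouse, 11 of the 15 called among them. Of the other 13, 11 reached it in more BG than control mice. Rtp4, called higher, reached it in no control mouse, so Rtp4 could be tested only through the mice in which it was high. Ifi27l2a, an interferon-induced mitochondrial protein gene, stood at 119, 100.4, 40.4 and 88.8 CPM in control mice and 608, 154, 561 and 363 CPM in BG mice, with no overlap. Its log2 fold change was 2.19 ± 0.28 (SE, edgeR adjusted p = 4.06e-05). Isg15, a ubiquitin-like modifier, was at 42.4, 67, 40.4 and 67.5 CPM in control and 279, 162, 281 and 87.6 CPM in BG mice, again without overlap, and rose by 1.88 ± 0.30 on the log2 scale (edgeR adjusted p = 0.000885). BG replicate 8 was the lowest of the BG mice for Isg15, and BG replicate 6 for Ifi27l2a. Both genes were called in each alternative that gave an adjusted p, as were Rtp4, Bst2, Gzmb and Mcm5. An adjusted p was given in 19 alternatives for Ifi27l2a, Bst2 and Gzmb, 18 for Isg15, 15 for Rtp4 and 12 for Mcm5. Rtp4 and Mcm5 reached the level of the filter in no control mouse of the main fit. For both, the alternatives are therefore no independent check.

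Genes of interferon signaling and of nucleic acid sensing were among the 15. Irf9, a transcription factor of the interferon response, was at 45.1, 44.6, 50.5 and 46.2 CPM in control and 165, 79, 85.4 and 94.1 CPM in BG mice (log2 fold change 1.10 ± 0.26, edgeR adjusted p = 0.0255). Irf7, which amplifies interferon production, was at 7.96, 61.4, 40.4 and 32 CPM in control and 139, 79, 97.6 and 68.1 CPM in BG mice (1.58 ± 0.34, edgeR adjusted p = 0.0107), where the control value of 7.96 CPM rested on 3 UMIs. In both genes every BG mouse stood above every control mouse. Zbp1, a sensor of unusual nucleic acids that can trigger cell death, rose by 1.28 ± 0.24, Rtp4, an interferon-induced inhibitor of viruses, by 1.94 ± 0.32, and Rnf213, a ubiquitin ligase against pathogens, by 1.03 ± 0.19. Bst2 (tetherin, which holds budding viruses at the membrane) rose by 1.30 ± 0.23 and Ifi213 and Ifi203, members of the family that senses DNA, by 1.42 ± 0.29 and 0.67 ± 0.14. Trim30a rose by 0.97, Xaf1 by 1.56, Lgals3bp by 1.13 and Ly6c2 by 0.92, and Xaf1 and Ly6c2 overlapped between the groups. Several of these calls rested on single mice. Irf7 was not called without control replicate 1 or BG replicate 7 (edgeR adjusted p = 0.11 and 0.09), and Irf9 without any 1 control mouse or BG replicate 5 (0.067 to 0.124). Ifi213 was not called without BG replicate 7 (0.0777), Trim30a without control replicate 3 or BG replicate 7 (0.0505 and 0.0777), and Xaf1 without control replicate 1 or BG replicate 7 (0.0871 and 0.229). Lgals3bp was not called without control replicate 1, control replicate 3 or BG replicate 7 (0.0574 to 0.109), nor Ly6c2 without control replicate 1, 2 or 3 or BG replicate 5 or 7 (0.0932 to 0.124).

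Interferon-stimulated promoters commonly hold repeats of GAAA spaced by 2 bases, and GAAA followed after any 2 bases by GAAA was searched on both strands in the RefSeq promoters (GRCm38.p6) from 250 bases before to 50 after the start of each gene. It occurred for 3.99% of 27025 genes with a promoter in the table, for 4.51% of the tested genes, for 7 of the 18 upregulated genes with a promoter (38.9%) and for 0 of the 6 downregulated genes. The 7 were Isg15, Bst2, Ifi213, Ifi203, Gzma, Trim30a and Jaml. Isg15 is shown because it held 3 overlapping matches, and Gzma because it is not counted among the interferon genes here. The Isg15 window is chr4:156200769-156201068 and the Gzma window chr13:113100932-113101231, both on the minus strand, read 5′ to 3′ with the matched letters in capitals (in Gzma the match is on the other strand, so that it reads TTTC, 2 bases and TTTC). A match describes letters only.
Isg15: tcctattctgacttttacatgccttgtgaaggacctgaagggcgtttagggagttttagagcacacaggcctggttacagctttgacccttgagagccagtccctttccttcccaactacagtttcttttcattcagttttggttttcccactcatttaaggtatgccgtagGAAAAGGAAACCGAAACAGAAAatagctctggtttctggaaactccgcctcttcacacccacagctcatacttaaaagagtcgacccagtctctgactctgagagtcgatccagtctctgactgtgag
Gzma: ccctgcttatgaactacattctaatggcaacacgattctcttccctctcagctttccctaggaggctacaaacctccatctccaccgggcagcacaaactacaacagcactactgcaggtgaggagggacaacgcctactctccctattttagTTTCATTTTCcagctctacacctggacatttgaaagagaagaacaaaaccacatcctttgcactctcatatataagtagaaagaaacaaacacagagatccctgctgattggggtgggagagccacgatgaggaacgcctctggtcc

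Granzymes were the cytotoxic genes called higher. Gzmb stood at 1629, 2170.4, 2077 and 2077 CPM in control and 2623, 3437, 3982 and 2534 CPM in BG mice, without overlap, and rose by 0.67 ± 0.12 on the log2 scale (edgeR adjusted p = 0.00316). Gzma was at 2393, 2756, 2334 and 3341 CPM in control and 3415, 4879, 4796 and 3312 CPM in BG mice, where BG replicate 8 lay just below control replicate 4, and rose by 0.60 ± 0.12 (edgeR adjusted p = 0.00758). It was not called without control replicate 3 or BG replicate 7 (edgeR adjusted p = 0.0683 and 0.0777). Of 12 tested genes for granules and death ligands these 2 were called, 10 had a fold change above 0, and the median was 0.18. The receptors of the rule gave no call (0 of 6 by edgeR and by DESeq2), with Klra9 at 297, 290.1, 328 and 373 CPM in control and 259.8, 270.1, 186 and 289 CPM in BG mice, which did not overlap (log2 fold change -0.37 ± 0.16, edgeR adjusted p = 0.425, unadjusted p = 0.026). The other 5 had log2 fold changes from -0.37 to 0.16. None of the 15 other NK receptors, 10 NK adaptor genes and 16 T cell receptor genes tested was called, with medians of 0.01, -0.10 and -0.07.

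Protein-folding and replication genes were a further group. Hspe1, a mitochondrial chaperone, was at 194, 239.9, 207 and 295 CPM in control and 469, 411, 546 and 311 CPM in BG mice, and rose by 0.89 ± 0.17 (edgeR adjusted p = 0.0038). Hsp90ab1, a cytosolic chaperone, was at 1294 to 2006 CPM in control and 2115 to 2874 CPM in BG mice and rose by 0.55 ± 0.12, and its cochaperone Stip1 rose by 1.09 ± 0.22. Hsp90ab1 was not called without control replicate 1, control replicate 2 or BG replicate 7 (edgeR adjusted p = 0.0874, 0.0582 and 0.0915), nor Stip1 without control replicate 1 (0.0678). In the heat shock list 2 of 11 tested genes were called higher, 8 had a fold change above 0, and the median was 0.41. The heat shock factor binds inverted GAA repeats, and GAA, any 2 bases, TTC, any 2 bases and GAA, searched on both strands of the same windows, occurred for 0.662% of all promoters. It occurred for 3 of the 9 heat shock genes with a promoter, and the Hspe1 window (chr1:55087898-55088197, plus strand, RefSeq, GRCm38.p6) is shown for its 2 overlapping matches, 1 on each strand, in capitals.
Hspe1: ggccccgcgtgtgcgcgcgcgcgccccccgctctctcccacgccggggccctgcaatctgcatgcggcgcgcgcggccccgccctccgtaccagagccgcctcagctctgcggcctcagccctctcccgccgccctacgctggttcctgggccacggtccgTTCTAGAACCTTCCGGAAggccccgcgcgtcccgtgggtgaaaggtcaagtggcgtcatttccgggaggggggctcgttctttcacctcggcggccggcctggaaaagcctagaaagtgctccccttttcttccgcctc
Mcm5, a subunit of the helicase that opens DNA for replication, was at 18.6, 11.2, 15.2 and 21.3 CPM in control and 44.3, 66.5, 73.2 and 58.4 CPM in BG mice, in cells chosen to lack Mki67 and Top2a. It rose by 1.82 ± 0.35 (edgeR adjusted p = 0.0038), and Mcm2, of the same helicase, rose by 1.63 ± 0.36. Mcm2 was not called without control replicate 2, control replicate 3 or BG replicate 7 (edgeR adjusted p = 0.0633, 0.0683 and 0.229). These were the 2 genes called of 14 tested for replication and growth. Neither reached the level of the filter (35.4 CPM before scaling) in any control mouse, so both could be tested only through the mice in which they were high.

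**Figure D3:**
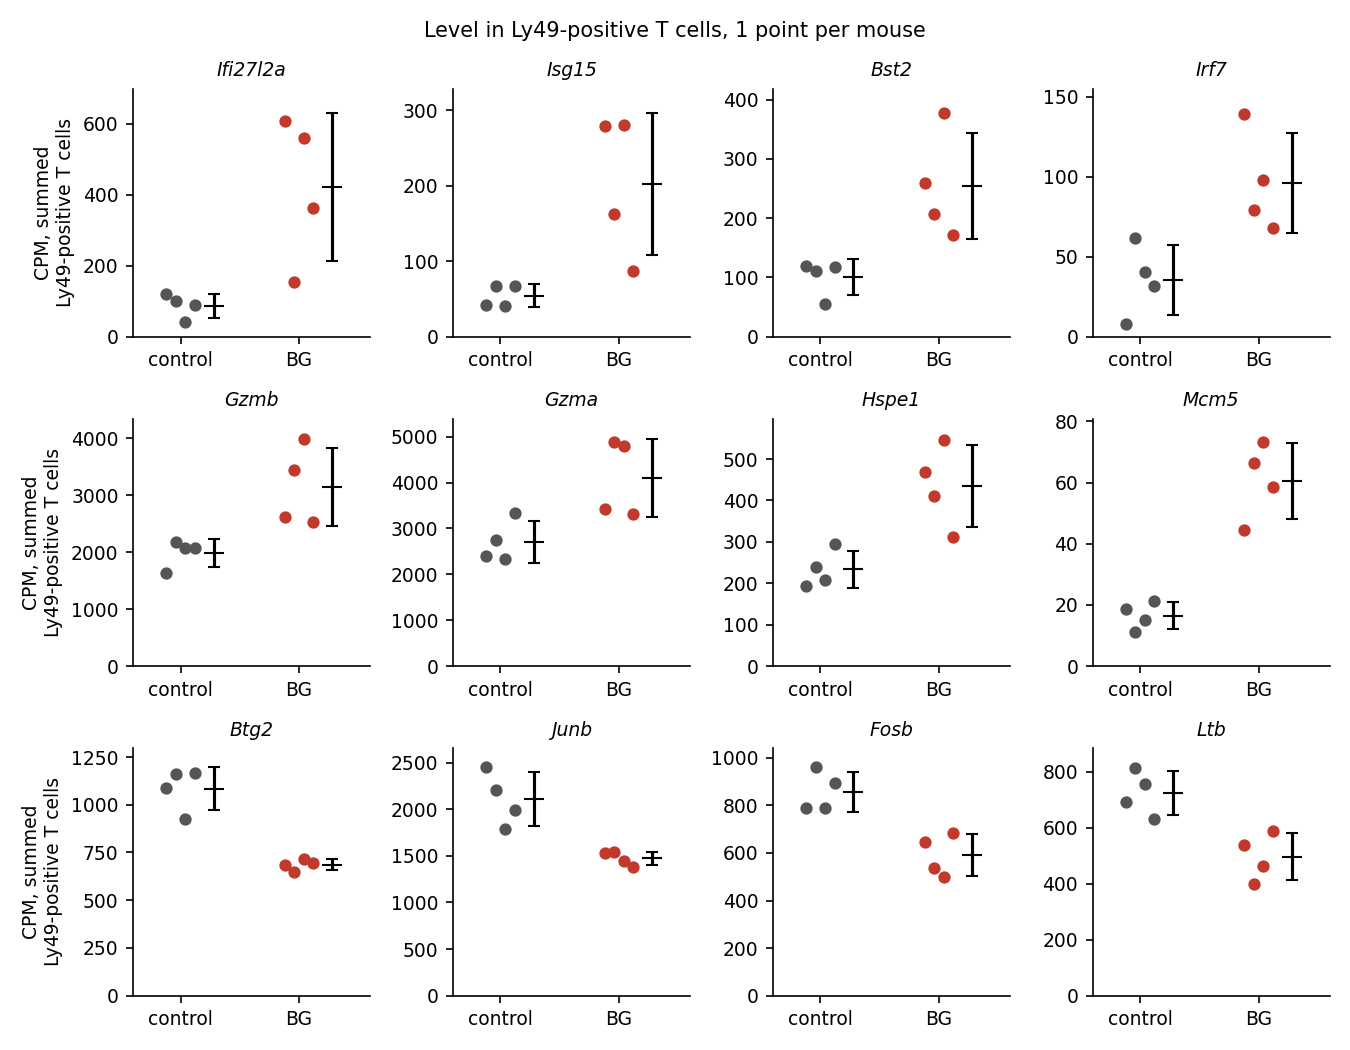
CPM in the summed Ly49-positive T cells of each mouse for 12 genes, 8 called higher (2 upper rows) and 4 called lower (bottom row) under BG. Each point is 1 mouse, bars give the mean ± SD of 4 mice, and each axis starts at 0. Gzma alone of the 12 had groups that overlapped, and Isg15 ran from 40.4 to 67.5 CPM in control and from 87.6 to 281 CPM in BG mice.

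Immediate early genes, whose transcripts appear within minutes of stimulation or of tissue handling, were lower in BG mice. All 19 tested genes of the list had a fold change under 0, 4 were called lower and 0 higher by edgeR (4 and 0 by DESeq2, 2 and 0 without control replicate 2, BG replicate 6, BG replicate 7 or BG replicate 8 and with at most 10% mitochondrial UMIs, and 1 and 0 with at least 3 receptor genes), and the median log2 fold change was -0.36 against 0.00 over all genes. Btg2, which slows proliferation, stood at 1088, 1161, 925 and 1164 CPM in control and 684, 648, 714 and 697 CPM in BG mice, without overlap (log2 fold change -0.66 ± 0.11, edgeR adjusted p = 0.00115). Junb, a subunit of the AP-1 transcription factor, was at 2454, 2209, 1789 and 1988 CPM in control and 1527, 1538, 1446 and 1382 CPM in BG mice (-0.52 ± 0.10, edgeR adjusted p = 0.00666). Its fold change was -0.44 with an adjusted p of 0.053 without control replicate 1, and -0.49 without BG replicate 8 (adjusted p = 0.0152). Fosb and Fos, further AP-1 subunits, had log2 fold changes of -0.54 ± 0.12 and -0.53 ± 0.12 (edgeR adjusted p = 0.0175 and 0.0204), and Fos overlapped between the groups through BG replicate 5. Jun was lower by -0.47 ± 0.11 (edgeR adjusted p = 0.0175), inside the fold limit.

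Rgs2, a brake on G protein signals, was at 613 to 685 CPM in control and 339 to 507 CPM in BG mice (log2 fold change -0.58 ± 0.13, edgeR adjusted p = 0.0175). Ltb, lymphotoxin β, was at 632 to 815 and 399 to 587 CPM (-0.53 ± 0.13, edgeR adjusted p = 0.03). These 2 did not overlap between groups. Fosb was not called without control replicate 2 or 4 or BG replicate 6 or 7 (adjusted p = 0.0894 to 0.128), and Rgs2 without control replicate 2, 3 or 4 or BG replicate 7 (0.0686 to 0.102). Ltb was not called without control replicate 1, 2 or 3 or BG replicate 6 or 7 (0.073 to 0.185), and Fos without any 1 mouse other than control replicate 4 and BG replicate 5 (0.0535 to 0.158). Among other lists, MHC class I presentation had 15 of 20 tested genes above 0 and none called, with a median of 0.15. B2m, the common light chain of class I molecules, was at 2162 to 2992 CPM in control and 2726 to 3303 CPM in BG mice (0.29 ± 0.10, edgeR adjusted p = 0.268). Interferon γ-induced genes had 1 of 12 called higher, the GTPase Gbp6 (1.21 ± 0.31, edgeR adjusted p = 0.0489), which was not called in any fit that left out 1 mouse (0.0667 to 0.177). Gbp6 reached the level of the filter (35.4 CPM before scaling) in no control mouse, so it could be tested only through the BG mice. Ifng itself was at 342, 591, 404 and 391 CPM in control and 329, 332, 323 and 341 CPM in BG mice, which did not overlap (-0.35 ± 0.15, edgeR adjusted p = 0.427).

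**Figure D4:**
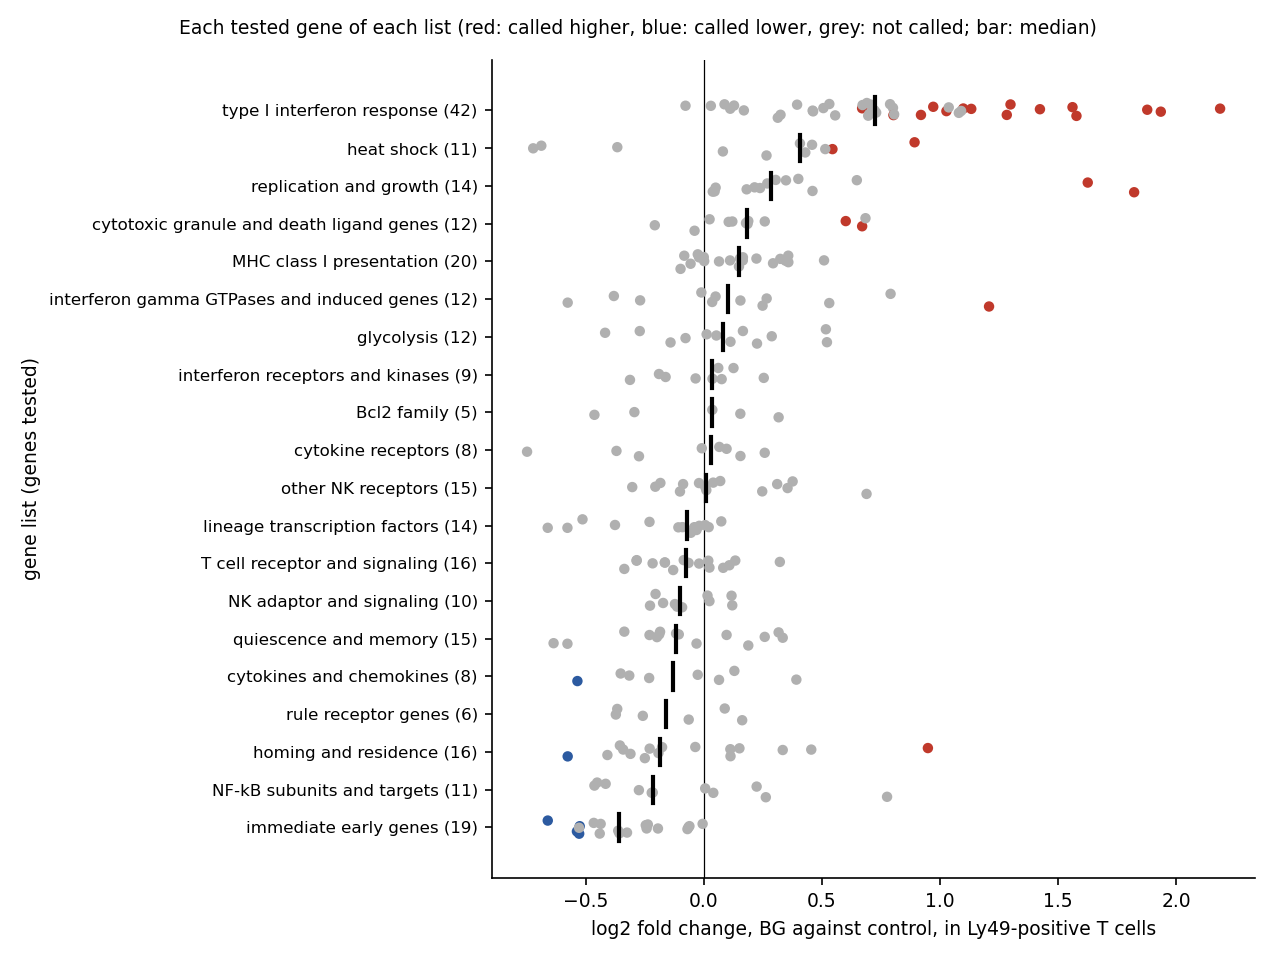
Log2 fold change (BG against control) of each tested gene in Ly49-positive T cells, by gene list with the number of genes tested. Red points are called higher, blue points called lower, grey points not called, and black bars give the median of the list. The interferon list had a median of 0.73 with 15 red points and the immediate early list a median of -0.36 with 4 blue points.

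Transcripts of other cells were measured beside these results, since free RNA and doublets add them. The 6 hepatocyte markers summed to 115 to 233 CPM in members of control mice and 140 to 846 CPM in BG mice, highest in BG replicate 6, and Alb gave 39.5% of it. Of these 6, 2 genes were tested, with a median log2 fold change of 1.03, and none was called by edgeR or DESeq2. The 8 macrophage markers summed to 19.8 to 245 and 7.83 to 421 CPM, highest in BG replicate 5, and the 4 markers of sinusoidal endothelium to 27.7 to 49.6 and 47.0 to 82.3 CPM. None of these lists had a gene at 0 in all members. The 3 markers of plasmacytoid dendritic cells summed to 55.3 to 136 and 181 to 340 CPM, of which 90.4% came from Bst2, itself an interferon-stimulated gene. Markers of red cells reached 2447 CPM in control replicate 2 and at most 34.5 CPM elsewhere. Among the 451 members with no UMI of the defining genes of other cells, 14 genes were called higher and 9 lower, of which 12 and all 6 were among those above, with 7 interferon genes. Among the 533 members with no Ncr1 UMI, 23 and 9 were called, 18 and 6 of them shared. The part of these other cells in each result was not tested beyond these counts.

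The response was read apart in the subsets. In Cd8a-only members (29 to 62 cells a library), 6 of 1856 tested genes were called higher (0.323%) and 5 lower (0.269%), and in Trdc-only members (19 to 43 cells), 12 of 1270 higher (0.945%) and 5 lower (0.394%). Ifi27l2a, Isg15, Bst2, Gzmb and Hsp90ab1 were called higher and Btg2 and Junb lower in each subset. Ifi27l2a rose by 1.61 ± 0.33 in Cd8a-only and 3.09 ± 0.37 in Trdc-only members, and Btg2 fell by 0.57 ± 0.13 and 0.93 ± 0.17. Of 1958 genes, 0 differed in response between the subsets by edgeR's interaction test (89 at an unadjusted p under 0.05, smallest adjusted p = 0.0782) and 0 by DESeq2 (9 at an unadjusted p under 0.05). Between the subsets, fits without 1 mouse called at most 3 genes, without control replicate 1. DESeq2 gave 0 calls in Cd8a-only members (130 genes at an unadjusted p under 0.05) and 1 in Trdc-only members. The subset counts moved with single mice. In Cd8a-only members edgeR called 0 genes without control replicate 1 or BG replicate 7 (144 and 142 at an unadjusted p under 0.05), 1 and 0 without control replicate 2, 2 and 1 without control replicate 3, 7 and 2 without BG replicate 6, and 7 and 1 without BG replicate 8. In Trdc-only members it called 1 and 0 without BG replicate 7, 5 and 6 without control replicate 1, 7 and 2 without control replicate 3, 10 and 2 without BG replicate 5, 13 and 3 without BG replicate 6, and 6 and 2 without BG replicate 8.

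The last comparison asked whether the response of Ly49-positive T cells differed from that of their neighbors in the same livers. Side by side, BG upregulated 22 of 4859 genes in Ly49-negative T cells (0.453%) and 20 of 3910 in Ly49-positive non-T cells (0.512%), and downregulated 6 in each (0.123% and 0.153%). Ifi27l2a rose by 2.02 ± 0.17 in Ly49-negative T cells and 2.00 ± 0.29 in non-T cells, and Gzmb by 1.14 ± 0.22 and 0.60 ± 0.12. Mcm5 was tested only in members. The replication and growth list had a median log2 fold change of 0.46 in non-T cells with 1 of 14 tested genes called higher. In members it was 0.29 with 2 of 14 called, and in Ly49-negative T cells 0.11 with 0 of 17. The 2 calls in members were Mcm5 and Mcm2, which reached the level of the filter in no control mouse. These counts of calls therefore do not compare the gates. Of the heat shock list, 3 of 11 tested genes were called higher in non-T cells and 0 of 11 in Ly49-negative T cells, against 2 of 11 in members. Of the type I interferon list, 17 of 49 tested genes were called higher in Ly49-negative T cells and 8 of 39 in non-T cells, against 15 of 42 in members. Of 19 tested immediate early genes, 17 were below 0 in Ly49-negative T cells and 3 were called lower. In non-T cells these counts were 13 and 3, against 19 and 4 in members. Junb, which fell in members, had a log2 fold change of -0.07 ± 0.10 in Ly49-negative T cells and -0.42 ± 0.11 in non-T cells. Ltb stood at -0.10 ± 0.11 and -0.38 ± 0.15. Lgals1, which encodes galectin-1, rose by 0.64 ± 0.14 in members and 0.66 ± 0.11 in non-T cells and stood at 0.12 ± 0.17 in Ly49-negative T cells. Jaml, an adhesion molecule of γδ and CD8+ T cells, rose by 0.95 ± 0.23 in members (42.4 to 72.5 CPM in control, 104 to 121 CPM in BG mice) and stood at 0.58 ± 0.22 and -0.19 ± 0.39 in the neighbors. In members, Lgals1 was not called without control replicate 1, control replicate 3 or BG replicate 7 (edgeR adjusted p = 0.0683 to 0.102), nor Jaml without control replicate 1 or 3 or BG replicate 5, 6 or 7 (0.0576 to 0.223).

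None of these differences in response passed the test of the difference itself. By edgeR's interaction test with the library as a block, 0 of 5290 genes differed between members and Ly49-negative T cells (300 at an unadjusted p under 0.05) and 0 of 4439 between members and non-T cells (198 at an unadjusted p under 0.05), and DESeq2 called 0 in each (57 and 10 at an unadjusted p under 0.05). The genes nearest to a call against Ly49-negative T cells, chosen after their values were seen, were Junb and Xcl1. On the scale of the joint fit, Junb went from 1834 CPM in control to 1287 in BG members and from 1735 to 1652 in Ly49-negative T cells, a difference in response of -0.44 ± 0.09 on the log2 scale (edgeR adjusted p = 0.0957). Xcl1 went from 1461 to 1254 CPM and from 117 to 167 CPM, a difference of -0.74 ± 0.17 (edgeR adjusted p = 0.0957). Fits that left out 1 mouse called up to 3 genes in a direction against Ly49-negative T cells (without control replicate 4) and up to 4 against non-T cells (without BG replicate 6). Without the filter on low counts, 7 genes responded more and 1 less in members than in Ly49-negative T cells, and 3 more and 7 less than in non-T cells. The smallest adjusted p against non-T cells was 0.711. A missed threshold does not show that the responses were alike.

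**Figure D5:**
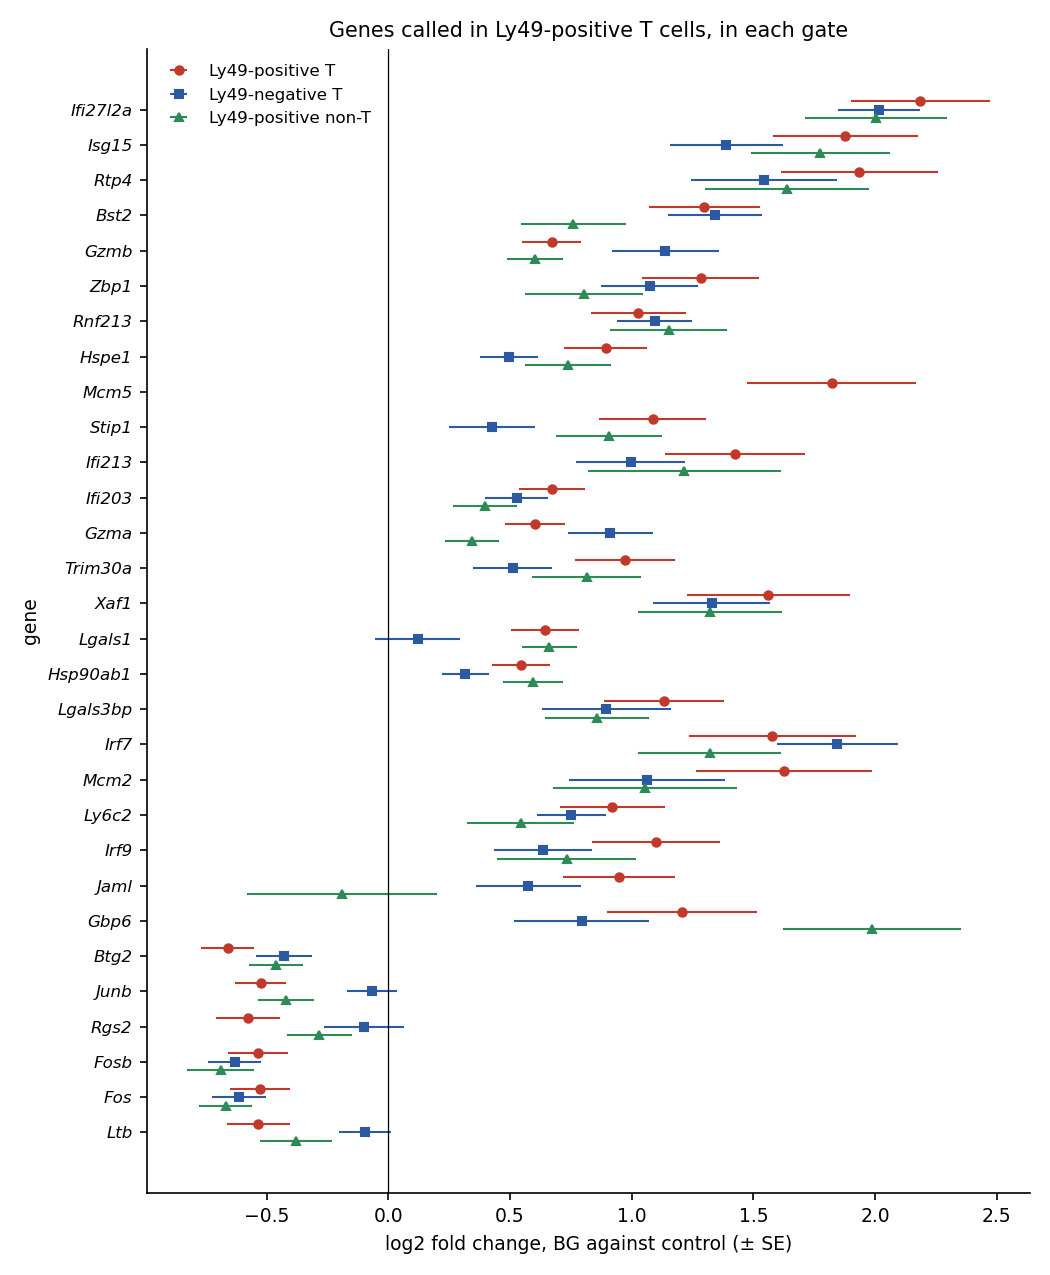
Log2 fold change (BG against control, ± SE) of 30 of the 31 genes called in Ly49-positive T cells (red circles), in Ly49-negative T cells (blue squares) and in Ly49-positive non-T cells (green triangles). No point is drawn where a gene was not tested, as for Mcm5 outside the members. Ifi27l2a lay between 2.00 and 2.19 in the 3 gates, and Junb at -0.52 in members against -0.07 in Ly49-negative T cells, a difference that did not pass its own test.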

How the data were processed

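The authors deposited 1 matrix of UMI counts per library, made with Cell Ranger 6.1.2 (per the file headers) against mm10 (per the submitters' processing notes), without depth normalization or cell calls. The 8 libraries held 39612380 to 60654583 UMIs. All values were computed from these counts with Python 3.11.15, R 4.3.3 and edgeR 4.0.16, and DESeq2 1.42.0 as an alternative. Cells outside 200 to 2500 genes or above 30% mitochondrial UMIs were left out. No doublet caller was run. Members and gene lists were chosen with earlier results of these data known.

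UMIs of each gate were summed per mouse and tested with edgeR's quasi-likelihood test (filterByExpr, TMM scaling, Benjamini-Hochberg adjustment over all tested genes, called at an adjusted p under 0.05 and a log2 fold change past 0.5). Differences in response were tested as interactions with the library as a block. Shares were compared by the exact permutation test (two-sided). Named genes were the rule genes, up to 12 called genes in each direction without overlap, the 3 of smallest p in each list, and the other called genes, which were added after their values were seen. Alternatives were RLE size factors, DESeq2, no filter, leaving out each mouse, stricter limits on mitochondrial UMIs, genes, receptor genes, Ncr1 and other lineages, the rule after thinning to 1500 UMIs, a further T cell receptor UMI, and barcodes of 1 library only. The edgeR fits of members, of the subsets and of the interactions were tested on simulated counts, with outcomes not reported here. For the interactions, gates were simulated independently, with a common dispersion and larger changes than the differences for Junb and Xcl1. The simulation therefore does not measure the power to detect those differences. Coordinates are GRCm38 and promoters are from RefSeq. Values of some genes are not reported here.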

Additional observations from a re-analysis of the deposited data

Results flagged for a closer look

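In 10 of 172 groups of 4 mice 1 value stood apart from the other 3 by Dixon's ratio of the gap to the range, where chance gives about 1 in 20. In control members Cd8a stood at 642 CPM in replicate 2 (nearest 501), Bst2 at 55.6 CPM in replicate 3 (nearest 112) and Hspa8 at 1172 CPM in replicate 1 (nearest 1880.3). In BG members Hcst, Gata3 and Lgals1 stood at 726, 58.0 and 815 CPM in replicate 7 (nearest 646, 74.6 and 607), and Tap1 and Jaml at 220.6 and 104 CPM in replicate 8 (nearest 175 and 119). Klrk1 stood at 553 CPM in BG replicate 6 (nearest 456) and Fos at 1349 CPM in BG replicate 5 (nearest 915).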

How the results depend on the processing

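Of the 31 genes called in members, 6 were called in every alternative that gave an adjusted p and 25 were not in at least 1, and over 83 named genes 1326 of 1485 gene and setting pairs kept direction and call. Rtp4 and Mcm5, which are among the 6, reached the level of the filter in no control mouse of the main fit. Leaving out 1 mouse gave 13 to 39 genes higher and 2 to 8 lower in members, 0 to 9 and 0 to 6 in Cd8a-only members, and 1 to 13 and 0 to 6 in Trdc-only members. It gave 0 to 3 and 0 to 2 genes that differed in response from Ly49-negative T cells, 0 to 4 and 0 to 3 from non-T cells, and 0 to 3 and 0 to 1 between the subsets. Without the filter the counts were 59 and 13 in members, 13 higher in Cd8a-only and 2 lower in Trdc-only members, 7 and 1 against Ly49-negative T cells, 3 and 7 against non-T cells and 2 higher between the subsets. DESeq2 gave 0 and 0 in Cd8a-only and 1 and 0 in Trdc-only members. Members without other-lineage UMIs gave 14 higher, those with 3 receptor genes 13 and 2, and those with at most 10% mitochondrial UMIs 6 and 2, where 2546, 1944 and 1131 genes were tested. The difference in the Trdc-only share was 7.50 percentage points after thinning and -3.29 to 0.945 without 1 mouse (0.0667 without BG replicate 8). Shares of kept cells differed by 0.0996 to 0.380 and of Cd8a or Trdc T cells by 1.09 to 5.73 without 1 mouse. The causes were not tested.

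Genes that were not called changed sign. Without 1 mouse, log2 fold changes ran from -0.12 to 0.27 for Klra1 (-0.0017 without control replicate 1), -0.12 to 0.30 for Klra5 and -0.066 to 0.17 for Trdc (-0.056 and -0.0038 without BG replicates 6 and 7). Without Ncr1 Cd160 was at 0.016 and Trdc at -0.023, and without other lineages Trdc at -0.028. With 3 receptor genes Klra1 was at -0.021 and Trdc at -0.18. At 10% mitochondrial UMIs Klra1, Klra5, Trdc, Cd244a and Cd226 were at -0.14, -0.024, -0.11, -0.029 and -0.040. At 1500 genes Klra1, Cd160, Trdc and Tpi1 were at -0.20, 0.039, -0.0091 and -0.11. Under the thinned rule Klra1, Cd3e, Cd8a and Trbc1 were at -0.097, 0.0057, -0.17 and 0.032.

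No paired analysis was possible because control and BG mice share no replicate numbers.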
